A study of Mus musculus with 12 samples.

Results

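The epidermal growth factor (EGF) receptor family and its ligands were examined in mouse totipotent potential stem (TPS) cells and extended pluripotent stem (EPS) cells by RNA-seq. The members were chosen by name: the 4 ErbB receptor genes Egfr, Erbb2, Erbb3 and Erbb4, and the 6 ligand genes Areg, Ereg, Btc, Hbegf, Tgfa and Nrg1. These are 10 of the 55401 genes counted, and all 10 were found under their GENCODE M21 symbols. TPS cells were grown on feeder cells in VCED medium on a 4C base, as the labels name it, without a list of its compounds. The study's methods describe TPS culture in a medium named CPEC, with CD1530 (an agonist of retinoic acid receptor gamma), VPA (which blocks histone deacetylases), EPZ004777 (which blocks DOT1L) and a GSK3 inhibitor, and whether VCED and CPEC are the same medium is not stated. EPS cells were grown on feeder cells as well, in LCDM medium. There were 3 lines of each cell type and 2 technical replicates of each line, which gave 12 libraries. Neither group carried a genetic change named in the labels, and the origin of the sequenced TPS lines is not given in the sources used here.

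ErbB receptors are cell surface tyrosine kinases that work in pairs. EGFR binds amphiregulin, transforming growth factor alpha, heparin-binding EGF, betacellulin and epiregulin, ERBB3 and ERBB4 bind neuregulins, and ERBB2 has no known ligand of its own and serves as a partner. ERBB3 has little kinase activity and signals through its partner, mainly to PI3K. The ligands are made as membrane proteins and are released by ADAM proteases, and the active receptors feed the RAS-ERK, PI3K-AKT, STAT and phospholipase C routes. In the mouse embryo, heparin-binding EGF and ErbB receptors are known from the contact between blastocyst and uterus, and EGFR is abundant in fibroblasts and epithelia.

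Library totals ran from 13676051 to 21821707 counts. The line was the unit of replication, with its 2 libraries added up, and line totals ran from 29877215 to 38466294. Nothing in the labels says that the lines came from separate animals, so the p-values measure the spread between these lines. Values are CPM, the counts of a gene relative to the library size times its TMM factor, and 3 counts in a line correspond to between 0.0750 and 0.0979 CPM. Differences were tested with edgeR's quasi-likelihood test over 17468 genes, with Benjamini-Hochberg adjustment and a threshold of 0.05. The libraries of EPS line 3 stood apart from each other more than those of any other line, with a median chi-square of 2.85 per gene against 0.910 to 1.73 in the other lines, over genes with at least 50 counts. The labels call them technical replicates, and whether both came from the same RNA sample was not tested, so the summed values of EPS line 3 may join 2 different samples. EPS line 3 was also taken from either library alone. Among the tested receptors and ligands and the pathway genes called with the libraries summed, only the call of Nrg1 then changed. More of the other pathway genes were called lower with library 2 alone.

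The labels of the 2 cell types were checked with marker genes. The 8 markers of the 2-cell stage summed to between 183 and 233 CPM in TPS lines and to at most 0.142 CPM in EPS lines, where Zfp352, Tcstv3 and Gm8300 were at 0. The 10 pluripotency markers, led by Tdgf1, were detected in all lines, at 2865 to 3056 CPM in TPS and 4626 to 5267 CPM in EPS. The 16 fibroblast genes, a readout of feeder cells and of any cell with a mesenchymal profile, were detected in both groups and summed to 6350, 3517 and 3698 CPM in TPS lines 1 to 3 and to 334, 1330 and 1419 CPM in EPS lines 1 to 3. The markers of trophectoderm spanned 145 to 635 CPM in TPS and 106 to 185 CPM in EPS. Of the 8 that were tested, 2 were called higher, 7 had a positive difference and the median log2 fold change was 3.15. DESeq2 called 5 of these markers higher, beside 15.8% of its genes. Over all genes tested with edgeR, 14.4% were called higher and 7.34% lower. The primitive endoderm markers summed to 106 to 142 CPM in TPS and 138 to 194 CPM in EPS, a sum led by Lama1, which was lower in TPS (38.4 against 136 CPM), while 4 of the 8 genes were called higher in TPS, 6 had a positive difference and the median log2 fold change was 1.93. Leukocyte markers spanned 71.5 to 313 CPM in TPS and 88.9 to 95.4 CPM in EPS. In such bulk samples, fewer cells of a type and less RNA per cell cannot be told apart.

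TPS lines held more Egfr, Areg and Nrg1 RNA than EPS lines, and no member was called lower. Of the 10 members, 9 passed the filter on low counts, Areg through its TPS counts alone and Btc mostly through them, so that the filter favours a positive difference for both. The 3 called members stand beside a background in which 14.4% of all tested genes were called higher and 7.34% lower. By edgeR at an unadjusted p under 0.05, 4 members were higher and 0 lower, beside 21.8% of all tested genes higher and 15.2% lower at that threshold. DESeq2 called 4 members higher and 0 lower, beside 15.8% higher and 7.61% lower of the 21795 genes to which it gave an adjusted p. In 4 of the 9 members (Egfr, Areg, Hbegf and Nrg1) the lowest TPS line exceeded the highest EPS line, which was so for 23.6% of all tested genes. The median log2 fold change of the 9 members was 0.93, against -0.0038 for all tested genes. Erbb3 was the only member with a negative fitted difference in this fit.

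**Figure D1:**
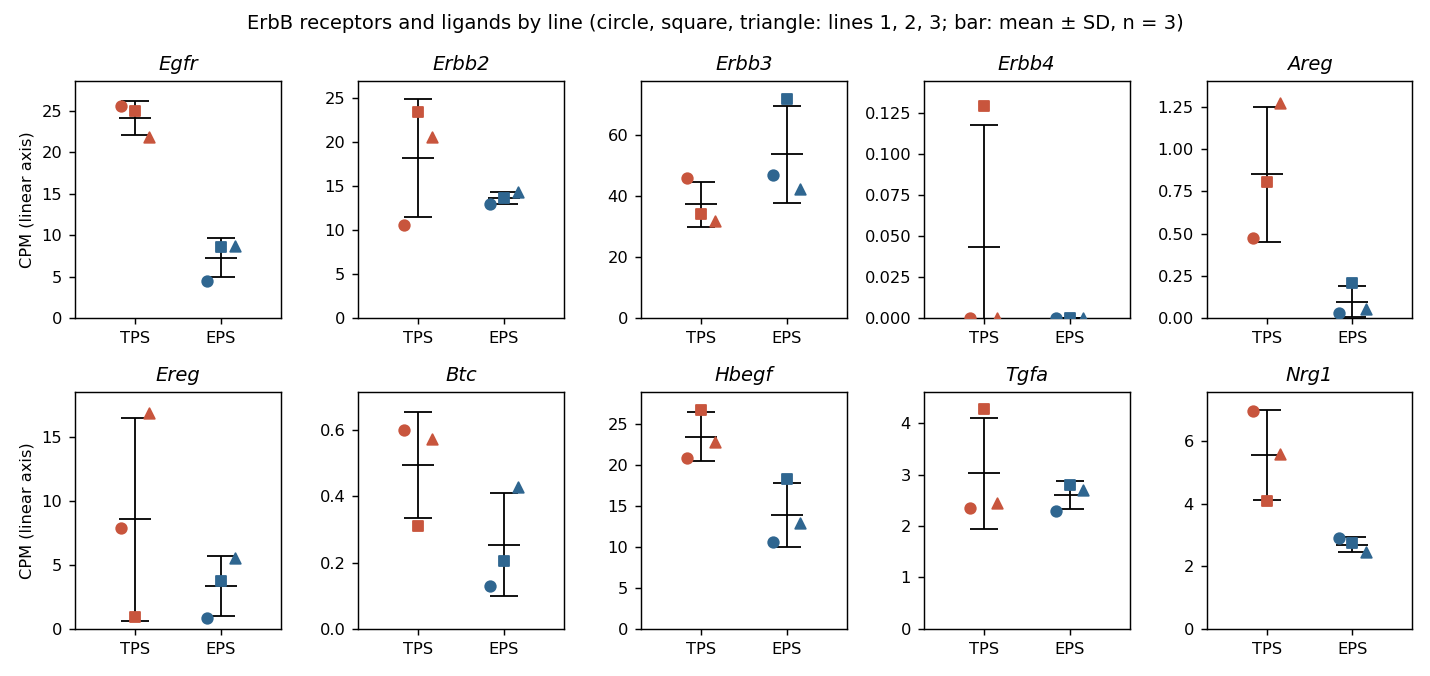
CPM of each member in each line on linear axes that start at 0, with red symbols for TPS lines and blue symbols for EPS lines, and with a black bar for the mean and 1 SD over 3 lines, cut off at 0. Egfr, Areg, Hbegf and Nrg1 do not overlap between the groups, and Ereg runs from 0.959 to 16.8 CPM within the TPS lines.

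Egfr, the receptor of most EGF-like ligands, was 3.31-fold higher in TPS lines. Its level was 25.5, 25.0 and 21.8 CPM in TPS lines 1, 2 and 3, and 4.54, 8.59 and 8.65 CPM in EPS lines 1, 2 and 3. The TPS lines lay close together at 24.1 ± 2.03 CPM (SD, n = 3), and the EPS lines, at 7.26 ± 2.36 CPM, were all below them. The log2 fold change was 1.73 ± 0.28 (SE), with an edgeR adjusted p of 0.00696, and the call held in all 18 alternative fits, in which the log2 fold change ranged from 1.45 to 1.87. The gene lies at chr11:16752203-16918158 on the plus strand of GRCm38, and the annotated antisense gene Egfros shares no exon base with it and had 4 counts in TPS and 5 in EPS lines.

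The fibroblast genes moved with Egfr. Of the 16, 10 were called higher in TPS lines, all 16 had a positive difference with a median of 1.90 on the log2 scale, and none was at 0 in either group. The sum was led by Col1a1, at 1740 of 3517 CPM in TPS line 2. In 12 of the 16 the lowest TPS line exceeded the highest EPS line, beside 23.6% of all tested genes. Dcn, Lum, Col6a3 and Postn overlapped. TPS line 2 lay below EPS lines 2 and 3 for Dcn (42.8 against 128 and 118 CPM), Lum and Col6a3, so the genes disagreed on this line. EPS line 1, which had the lowest fibroblast sum, also had the lowest Egfr level. Among the TPS lines the sum was 6350, 3517 and 3698 CPM, while Egfr stayed at 25.5, 25.0 and 21.8 CPM. Per 1000 CPM of summed fibroblast genes, Egfr was at 4.02, 7.10 and 5.89 CPM in the TPS lines and at 13.6, 6.46 and 6.10 CPM in the EPS lines, so that on this scale the groups overlapped. Dividing by a sum that is higher in all TPS lines lowers the TPS values of any gene, so this scale cannot tell which cells held the Egfr RNA. The part of feeder or other fibroblast-like cells in the Egfr difference was not tested.

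**Figure D2:**
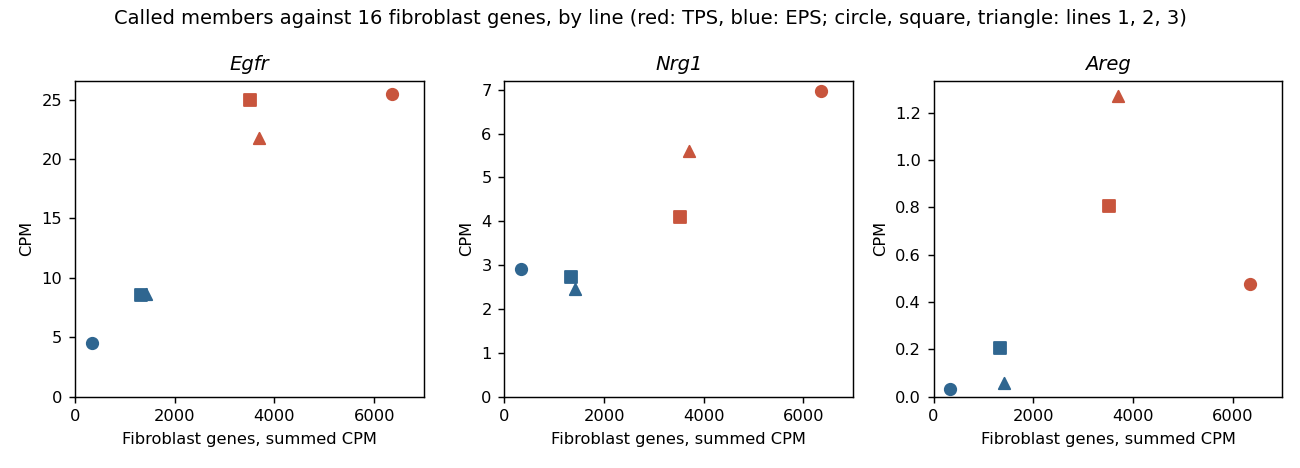
CPM of Egfr, Nrg1 and Areg in each line (vertical axis) against the summed CPM of 16 fibroblast genes (horizontal axis), with TPS lines in red and EPS lines in blue. The 3 TPS lines lie to the right of the 3 EPS lines on this sum, which is led by Col1a1. TPS line 1, at 6350 CPM, has the most Egfr and Nrg1 but the least Areg of the TPS lines.

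Promoter sequences are shown for Egfr and Areg, since these members changed, and for Tgfa, which was not called. RefSeq sequences of the 250 bases before the gene start (GRCm38.p6) were matched by symbol for 6 members (Egfr, Erbb2, Erbb4, Areg, Btc and Tgfa), and no window is shown for Hbegf, Erbb3, Ereg and Nrg1. Each is written from 5′ to 3′ on the strand of its gene, at chr11:16751953-16752202 (plus), chr5:91139349-91139598 (plus) and chr6:86194972-86195221 (plus). Capitals mark matches, on either strand, to the GC box GGGCGG, the retinoic acid receptor half-site AGGTCA, the AP-1 site TGACTCA or the cAMP response element TGACGTCA. The last of these was added after the Areg sequence had been read.
Egfr: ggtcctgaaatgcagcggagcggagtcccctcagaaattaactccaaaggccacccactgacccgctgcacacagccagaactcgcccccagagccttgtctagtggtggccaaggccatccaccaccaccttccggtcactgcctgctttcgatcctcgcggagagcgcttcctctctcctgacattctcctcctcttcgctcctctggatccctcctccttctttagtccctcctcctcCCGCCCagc
Areg: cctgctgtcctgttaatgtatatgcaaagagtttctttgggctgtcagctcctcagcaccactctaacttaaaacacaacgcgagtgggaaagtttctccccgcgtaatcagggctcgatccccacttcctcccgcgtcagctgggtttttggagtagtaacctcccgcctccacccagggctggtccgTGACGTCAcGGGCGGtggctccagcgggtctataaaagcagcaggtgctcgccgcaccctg
Tgfa: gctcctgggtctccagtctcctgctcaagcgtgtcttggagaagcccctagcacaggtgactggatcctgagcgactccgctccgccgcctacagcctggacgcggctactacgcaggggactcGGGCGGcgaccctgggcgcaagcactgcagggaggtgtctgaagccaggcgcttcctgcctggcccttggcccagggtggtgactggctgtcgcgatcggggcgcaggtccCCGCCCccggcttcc

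The Egfr window held 1 GC box, which begins 9 bases before the start, and the Areg window held 1 that begins 52 bases before it. The Areg window also held the cAMP response element, 61 bases before the start. The Tgfa window held 2 GC boxes. Of 32851 RefSeq promoter windows of the same length, 32.7% held a GC box, 14.0% a retinoic acid receptor half-site, 4.46% an AP-1 site and 1.55% a cAMP response element. None of the 3 windows held a half-site or an AP-1 site in these letters. GC content was 60.8% in the Egfr window, 57.2% in the Areg window and 69.2% in the Tgfa window, against a median of 52.4% over all windows. These matches describe letters only.

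Erbb2 and Erbb3, the receptor partners without a ligand or with little kinase activity, were not called. Erbb2 (chr11:98412470-98437716, plus) was at 10.6, 23.5 and 20.6 CPM in TPS lines 1 to 3 and at 13.0, 13.6 and 14.4 CPM in EPS lines 1 to 3. TPS line 1 lay below all EPS lines and the other TPS lines above them, so the EPS lines were nearly level and the TPS lines spread over both sides of them. Its log2 fold change of 0.42 ± 0.29 had an adjusted p of 0.345. Erbb2 shares 9 exon bases with Mien1, a protein-coding gene on the other strand.

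Erbb3 (chr10:128567523-128589652, minus) was at 45.7, 34.1 and 31.9 CPM in TPS lines and at 47.0, 71.8 and 42.3 CPM in EPS lines. The highest level was in EPS line 2, and TPS line 1 lay within the EPS range. A log2 fold change of -0.53 ± 0.24 was fitted, with an adjusted p of 0.154, and it was negative in all 18 alternative fits. Erbb3 was called in only 1 of these, which treated the 12 libraries as separate samples (adjusted p = 0.0296). That fit counts technical replicates as independent, so its p-values are too small. Erbb4 (chr1:68032186-69108059, minus), the other neuregulin receptor, was practically undetected: TPS line 2 had 5 counts, split as 1 and 4 between its libraries, and every other library had 0.

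The share of each receptor was computed from CPM per kilobase of annotated exon, the scale on which genes of different length are compared. The summed receptor level was 11.8 ± 0.610 CPM per kilobase in TPS lines and 12.2 ± 2.70 in EPS lines, and the lines overlapped. Egfr made up 18.9%, 17.8% and 17.2% of it in the TPS lines and 3.75%, 4.96% and 7.24% in the EPS lines. Erbb3 made up 63.9%, 45.8% and 47.5% in the TPS lines and 73.0%, 78.0% and 66.6% in the EPS lines. Both shares were fully separated between the groups, with the Egfr share higher and the Erbb3 share lower in TPS. Shares of one total do not move independently, and the CPM of Erbb3 itself overlapped between the groups. The fibroblast sum was higher in all TPS lines, and the part of fibroblast-like cells in the shares was not tested. Erbb2 made up 17.2% to 36.4% in TPS and 17.1% to 26.2% in EPS lines, which overlapped.

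The mean difference was 12.7 percentage points for the Egfr share and -20.1 for the Erbb3 share, each with a two-sided exact permutation p of 0.1, the smallest that 3 lines against 3 can give. For Erbb2 it was 7.45 points, with an exact p of 0.3. Adjusted over the 3 shares, the exact permutation p-values were 0.15, 0.15 and 0.3, so none can pass 0.05. Expressed as a ratio of levels per kilobase, Egfr stood at 0.296, 0.389 and 0.362 of Erbb3 in the TPS lines and at 0.0513, 0.0636 and 0.109 of it in the EPS lines. Erbb3 was the most abundant receptor in each of the 6 lines.

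**Figure D3:**
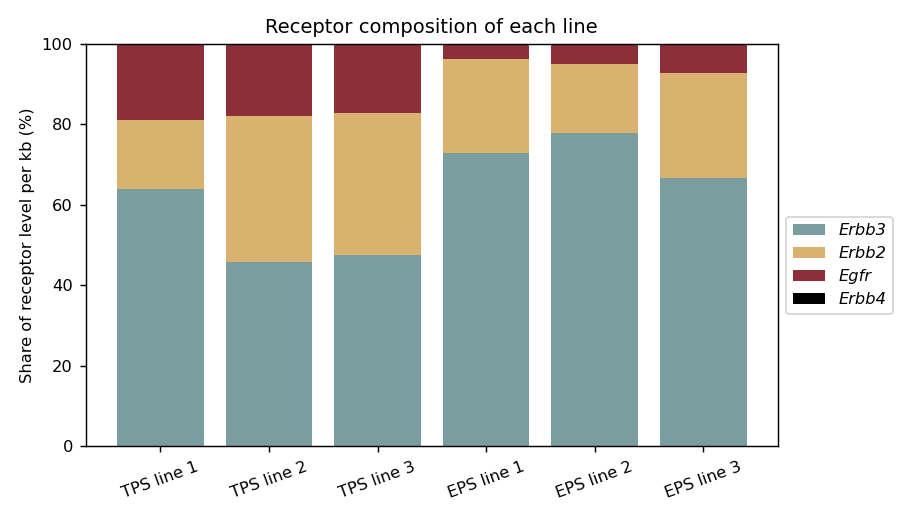
Share of each ErbB receptor (percent of the summed CPM per kilobase of the 4 receptors, stacked) in each of the 6 lines. The Egfr share is 17.2% to 18.9% in TPS lines and 3.75% to 7.24% in EPS lines, and Erbb4 is too low to be seen.

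Among all members, the order of levels per kilobase in TPS lines was Erbb3 (6.19), Hbegf (4.84), Erbb2 (3.50), Egfr (2.13), Ereg (2.07), Areg (0.699), Nrg1 (0.536), Tgfa (0.466), Btc (0.109) and Erbb4 (0.0035). In that order, neighbours overlapped between lines down to Tgfa, and only the steps from Tgfa to Btc and from Btc to Erbb4 were free of overlap. In EPS lines the order was Erbb3 (8.92), Hbegf (2.87), Erbb2 (2.62), Ereg (0.812), Egfr (0.641), Tgfa (0.400), Nrg1 (0.261), Areg (0.0811), Btc (0.0563) and Erbb4 at 0. There Erbb3 lay above all others without overlap, Hbegf and Erbb2 overlapped, Ereg, Egfr and Tgfa formed a run of overlapping neighbours, Nrg1 stood between Tgfa and Areg without overlap, and Areg overlapped Btc. With the longest transcript as gene length, Hbegf moved above Erbb3 in TPS lines, at 8.10 against 6.19, and Nrg1, at 1.03, moved above Areg (0.699), while in EPS lines Nrg1 came to 0.498 in the same place of the order. With technical replicate 1 alone, Erbb2 (2.74) stood above Hbegf (2.63) in EPS lines.

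Areg, Ereg and Btc lie in the same stretch of chromosome 5, and only Areg was called. Areg (chr5:91139599-91148432, plus), the amphiregulin gene, had few counts. It was at 0.475, 0.803 and 1.27 CPM in TPS lines and at 0.0327, 0.206 and 0.0569 CPM in EPS lines, which rests on 19, 31 and 40 counts against 1, 7 and 2. All TPS lines lay above all EPS lines, and EPS lines 1 and 3 were at or below 3 counts. The log2 fold change was 3.04 ± 0.71, with an adjusted p of 0.0227. Its size depends on the few EPS counts, and it was 4.10 (adjusted p = 0.0277) without EPS line 2 and 2.64 without TPS line 3 or EPS line 1. The call was lost without TPS line 3 (adjusted p = 0.0740), without EPS line 1 (0.0669) and without EPS line 3 (0.0717), and with EPS line 3 taken from either of its libraries alone it was 0.0305 and 0.0356. Areg did not pass the filter with single libraries or with a minimum of 1 CPM.

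Ereg (chr5:91074622-91093646, plus), the epiregulin gene, varied more between lines of the same type than between the types. Its level was 7.85, 0.959 and 16.8 CPM in TPS lines 1, 2 and 3 and 0.849, 3.71 and 5.49 CPM in EPS lines 1, 2 and 3. TPS line 2 lay near the lowest EPS line, while TPS line 3 was the highest of all, and the 2 libraries of each of these TPS lines were close, with 17 and 20 counts in line 2 and 250 and 279 in line 3. With a log2 fold change of 1.34 ± 0.96 and an adjusted p of 0.348, Ereg was not called, and without TPS line 3 the log2 fold change was 0.39. The antisense gene Gm19610 shares 141 exon bases with Ereg and had 15 counts in TPS and 2 in EPS lines.

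Btc (chr5:91357261-91402994, minus), the betacellulin gene, was at 0.600, 0.311 and 0.572 CPM in TPS lines and 0.131, 0.206 and 0.427 CPM in EPS lines. TPS line 2 lay below EPS line 3, so the groups overlapped. Its log2 fold change of 0.93 ± 0.55 had an adjusted p of 0.262. At this depth the libraries of a line could differ widely, as in TPS line 2, with 11 counts in one library and 1 in the other.

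Hbegf (chr18:36504927-36515805, minus), the gene of heparin-binding EGF, was the most abundant ligand gene per kilobase in both cell types, at 43.3% to 73.2% of the 6 ligands in TPS lines and 55.6% to 71.0% in EPS lines. Its level was 20.8, 26.7 and 22.8 CPM in TPS lines and 10.6, 18.2 and 12.8 CPM in EPS lines, with no overlap. Hbegf had a log2 fold change of 0.75 ± 0.24, and the adjusted p of 0.0595 missed the threshold. Hbegf was called by DESeq2 (adjusted p = 0.0331), with upper quartile factors (0.0467), with library size alone (0.0397), with 12 separate libraries (0.00265) and without EPS line 2 (0.0391), over a range of 0.00265 to 0.155 in all alternatives. The value of 0.00265 is too small, since that fit counts technical replicates as independent.

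Tgfa (chr6:86195223-86275719, plus), the transforming growth factor alpha gene, was at 2.35, 4.28 and 2.45 CPM in TPS lines and 2.29, 2.80 and 2.70 CPM in EPS lines. Only TPS line 2 stood above the EPS lines. Its log2 fold change of 0.22 ± 0.35 had an adjusted p of 0.689, and without TPS line 2 it turned to -0.12.

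Nrg1 (chr8:31814551-32884029, minus), the gene of neuregulin 1, was 2.06-fold higher in TPS lines. It was at 6.97, 4.09 and 5.59 CPM in TPS lines and 2.91, 2.74 and 2.45 CPM in EPS lines. The EPS lines lay close together and all TPS lines lay above them. The log2 fold change was 1.04 ± 0.31, with an adjusted p of 0.0467, just under the threshold. It remained called without TPS line 2 (0.0429) and was lost on leaving out TPS line 1 (0.144), TPS line 3 (0.123), EPS line 1 (0.0843), EPS line 2 (0.101) or EPS line 3 (0.108). With EPS line 3 taken from its library 1 alone the adjusted p was 0.0492, and from its library 2 alone it was 0.0546.

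Nrg1, Areg and Hbegf were also set beside the fibroblast sum. Per 1000 CPM of fibroblast genes, Nrg1 was at 1.10, 1.16 and 1.51 CPM in TPS lines and at 8.71, 2.06 and 1.73 CPM in EPS lines, so that on this scale the order of the groups was the opposite. Areg was at 0.0748, 0.228 and 0.344 CPM on that scale in TPS lines and at 0.0979, 0.155 and 0.0401 CPM in EPS lines, which overlapped. Hbegf was at 3.28, 7.58 and 6.15 CPM on that scale in TPS lines and at 31.7, 13.7 and 9.05 CPM in EPS lines, again in the opposite order. The sum was itself higher in all TPS lines, so a gene that rose less than the sum comes out lower on this scale, whatever cells express it. Tgfa, Erbb2 and Erbb3, which were not called, also lay lower in all TPS lines than in any EPS line on it. The scale therefore cannot tell which cells held these RNAs. The part of fibroblast-like cells in these differences was not tested. Summed per kilobase, the 6 ligands came to 7.76, 7.53 and 10.9 CPM in TPS lines and to 3.08, 5.58 and 4.78 CPM in EPS lines, without overlap.

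**Figure D4:**
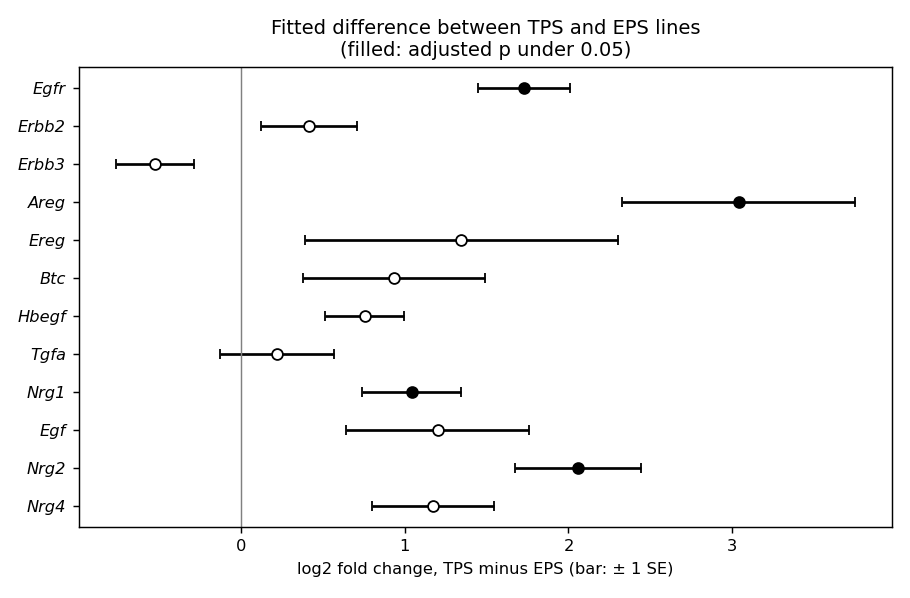
Fitted log2 fold change of TPS minus EPS lines for the 12 receptor and ligand genes that passed the filter, including Egf, Nrg2 and Nrg4, with bars of 1 SE and filled points for an adjusted p under 0.05. Egfr, Areg, Nrg1 and Nrg2 are filled, and Erbb3 at -0.53 is the only point left of 0.

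The 5 other EGF family ligands were Egf, Epgn, Nrg2, Nrg3 and Nrg4, of which 3 were tested, 1 was called higher and 0 lower. At an unadjusted p under 0.05, edgeR placed 2 of them higher and 0 lower, with 21.8% of all tested genes higher, and DESeq2 called 2 higher and 0 lower, with 15.8% higher. Nrg2, the neuregulin 2 gene, was at 1.60, 2.31 and 2.89 CPM in TPS lines and 0.522, 0.500 and 0.598 CPM in EPS lines, with no overlap. Its log2 fold change was 2.06 ± 0.38 (adjusted p = 0.0109), and it was called in all 18 alternatives. The fibroblast genes, summed to 3517 to 6350 CPM in TPS and 334 to 1419 CPM in EPS lines, were higher in the same lines. Their part in the Nrg2 difference was not tested. Nrg4 had a log2 fold change of 1.17 (adjusted p = 0.0597), but shares 368 exon bases with Fbxo22, a protein-coding gene on the other strand. Fbxo22 had 6702 counts in TPS and 10759 in EPS lines, and how the counting used strand is not given in the sources used here. The gene of EGF itself, Egf, had a log2 fold change of 1.20 (adjusted p = 0.161) and shares 500 and 607 exon bases with antisense genes. Epgn and Nrg3 had at most 3 counts in a line. Over all 11 ligands, 9 were tested and 3 were called higher (Areg, Nrg1 and Nrg2), beside 14.4% of all tested genes, and the filter favours a positive difference for Areg and Btc.

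The genes that cut ligands from the membrane were examined next. Of 11 genes for shedding proteases and their partners, 4 rose in TPS lines, all of them ADAM protease genes, and 0 fell, beside 14.4% of all tested genes called higher, and the median log2 fold change was 0.63. The fibroblast genes were higher in the same lines (10 of 16 called, summed to 3517 to 6350 CPM in TPS and 334 to 1419 CPM in EPS lines), and their part in the shedding genes was not tested. The unadjusted edgeR test placed 6 higher and 1 lower (21.8% and 15.2% over all tested genes), and DESeq2 called 6 higher and 1 lower, Rhbdf1 (15.8% and 7.61%). Adam17, the main sheddase of amphiregulin, transforming growth factor alpha and heparin-binding EGF, was at 89.0, 70.5 and 69.5 CPM in TPS lines and 37.9, 56.0 and 46.7 CPM in EPS lines, with no overlap and a log2 fold change of 0.70 ± 0.18 (adjusted p = 0.0332). Adam10, the main sheddase of betacellulin, had 0.63 ± 0.16 (adjusted p = 0.0289).

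Adam9, a further membrane protease gene, had a log2 fold change of 1.12 ± 0.25 (adjusted p = 0.0183). Adam8, known from immune cells, was at 156, 29.2 and 53.5 CPM in TPS lines and 14.1, 18.9 and 15.1 CPM in EPS lines, with a log2 fold change of 2.31 ± 0.56 (adjusted p = 0.0256) that fell to 1.37 (0.0273) without TPS line 1. TPS line 1, which had the most Adam8, also had the highest leukocyte marker sum, 313 CPM against 71.5 and 142 CPM in the other TPS lines, and none of the 5 leukocyte genes was called or at 0, with 2 higher and 0 lower at an unadjusted p under 0.05 in edgeR (21.8% of all tested genes higher) and 2 higher by DESeq2 (15.8%). The part of leukocytes in the Adam8 level was not tested. Each of these calls was lost when certain lines were left out: Adam8 without EPS line 1, 2 or 3, Adam9 without TPS line 1, TPS line 3 or EPS line 1, Adam17 without any line but EPS line 2, and Adam10 without TPS line 1 or 2 or EPS line 1 or 3, with adjusted p-values up to 0.102.

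Among 17 genes of receptor adaptors and the RAS-ERK route, 2 rose and 1 fell, with a median of 0.01, which is near the 14.4% of all tested genes called higher and the 7.34% called lower. DESeq2 called 2 higher and 1 lower, beside 15.8% and 7.61% of its genes. Gab2, a docking protein that links receptors to PI3K and SHP2, was at 10.4, 9.12 and 6.61 CPM in TPS and 2.06, 3.80 and 3.22 CPM in EPS lines, a log2 fold change of 1.52 ± 0.33 (adjusted p = 0.0177). Sos2, an exchange factor that loads RAS with GTP, had 1.43 ± 0.35 (adjusted p = 0.0254). Nras fell by 0.54 on the log2 scale (adjusted p = 0.0409). The Nras call was lost with library size alone, with upper quartile factors, with technical replicate 1 alone and without any line but EPS line 2, that of Sos2 without TPS line 1 or 2 or EPS line 1 or 2, and that of Gab2 without TPS line 1.

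Among 12 genes of the PI3K, STAT and phospholipase C routes, 2 rose and 1 fell, with a median of 0.03, again near the background of 14.4% higher and 7.34% lower. DESeq2 called 2 higher and 2 lower (Stat3 and Stat5a), beside 15.8% and 7.61% of its genes. Akt1, a kinase downstream of PI3K, was at 119, 129 and 128 CPM in TPS and 50.1, 65.4 and 54.9 CPM in EPS lines, a log2 fold change of 1.14 ± 0.14 (adjusted p = 0.00311). Pik3r1, the p85 regulatory subunit of PI3K, had 0.85 ± 0.17 (adjusted p = 0.0137). Stat3, a transcription factor that mediates the response to LIF, was at 111, 105 and 98.1 CPM in TPS and 181, 168 and 144 CPM in EPS lines, and fell by 0.64 (adjusted p = 0.0153). Akt1 and Pik3r1 were called in all 18 alternatives, and the Stat3 call was lost only without TPS line 3 (0.0600). All of these fits use the same bulk samples, and the part of fibroblast-like cells in these differences was not tested.

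Of 14 genes that restrain the receptors or carry them to degradation, 2 rose and 0 fell, with a median of 0.04, and the share that rose is that of all tested genes (14.4%). At an unadjusted p under 0.05, edgeR placed 4 higher and 1 lower, where 21.8% and 15.2% of all tested genes stood, and DESeq2 called 4 higher and 0 lower against 15.8% and 7.61%. Errfi1 encodes MIG6, an inhibitor that binds the EGFR kinase. It was at 49.9, 55.1 and 50.5 CPM in TPS and 15.9, 23.8 and 19.2 CPM in EPS lines, with a log2 fold change of 1.40 ± 0.18 (adjusted p = 0.00364). Eps15, an endocytic adaptor first known as an EGFR substrate, had 0.94 ± 0.15 (adjusted p = 0.0067). Both were called in all 18 alternatives.

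Of 14 immediate-early genes, which respond quickly to growth factors and also to serum and handling, 2 rose and 0 fell by edgeR, with a median of -0.18, and the share that rose is again that of all tested genes (14.4%). Phlda1 was at 6.37, 11.5 and 9.02 CPM in TPS and 1.80, 2.33 and 2.28 CPM in EPS lines (log2 fold change 2.07 ± 0.32, adjusted p = 0.00607). Myc had 1.91 ± 0.44 (adjusted p = 0.0220), and its call was lost without EPS line 1 (0.0705) and without EPS line 2 (0.0765). Without TPS line 3, which had 48.1 CPM of Myc against 15.6 and 19.2 CPM in the other TPS lines, the log2 fold change was 1.24 (0.0416). The unadjusted edgeR test placed 3 higher and 3 lower, against 21.8% and 15.2% of all tested genes. DESeq2 called 2 higher and 3 lower (Fos, Fosb and Ier2), against 15.8% and 7.61%.

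Fos, an AP-1 subunit gene, differed far more among EPS lines than among TPS lines, and it is named here after its values were seen. It was at 20.9, 9.56 and 13.7 CPM in TPS lines and at 8.81, 380 and 70.1 CPM in EPS lines. In EPS line 3 it had 24 counts in library 1 and 2440 in library 2, which is 1.51 against 127 CPM. Of the 14 genes, 13 were higher in library 2 of that line than in library 1, and 8 of them by more than 2-fold. The members went both ways between these libraries. Egfr was at 7.13 and 9.96 CPM in libraries 1 and 2, Hbegf at 9.65 and 15.5, Nrg1 at 2.08 and 2.76 and Erbb3 at 36.0 and 47.7, and Ereg was 1.36-fold higher in library 2. Erbb2 was at 16.5 and 12.7 CPM, Tgfa at 2.90 and 2.56, Btc at 0.442 and 0.417 and Areg at 0.126 and 0.

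Over the 5 lists together, 12 of 68 tested genes rose and 2 fell, with a median log2 fold change of 0.03, beside 14.4% of all tested genes called higher and 7.34% lower. DESeq2 called 16 of these genes higher and 7 lower, beside 15.8% and 7.61% of its genes. Without the filter on low counts edgeR called 15 higher and 7 lower, beside 10.1% and 4.71% of 32608 genes. The fibroblast sum was higher in all TPS lines, and the part of fibroblast-like cells in the called genes of any of these lists was not tested.

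**Figure D5:**
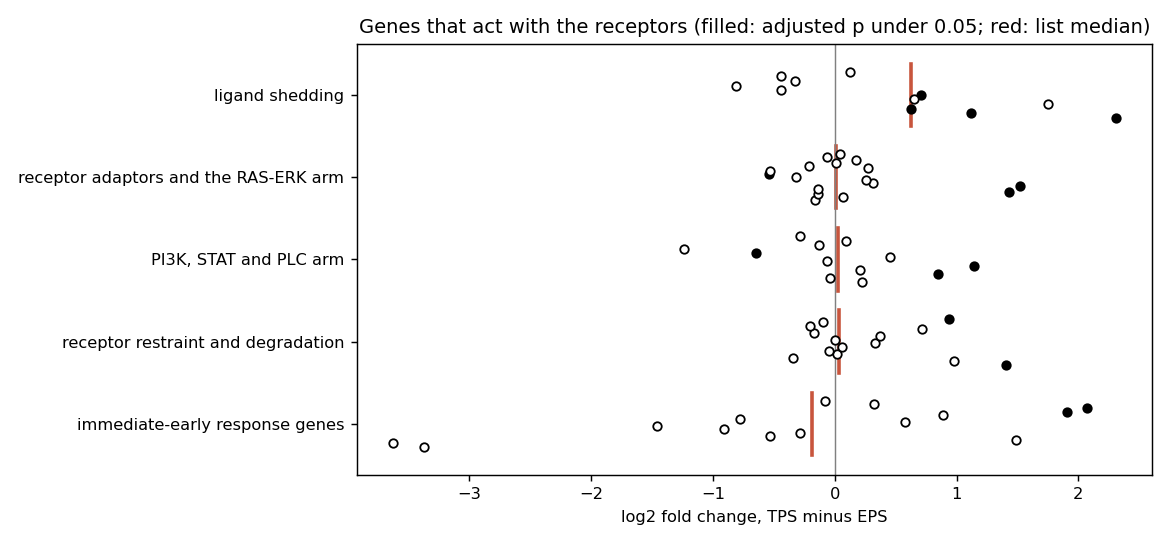
Fitted log2 fold change of TPS minus EPS lines for 68 genes in 5 lists, with filled points for an adjusted p under 0.05 and a red line at the median of each list. The median is 0.63 for ligand shedding and between -0.18 and 0.04 for the other lists, and the lowest points of the immediate-early list are Fos and Fosb, which were not called.

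The genes whose levels followed each receptor most closely were found by Pearson's r of log2(CPM + 1) over the 12 libraries, which share lines and the group difference, so r is only a description. For Egfr they were Nr2f2 (r = 0.992), a nuclear receptor gene of mesenchyme, F3 (0.991), the tissue factor gene, and Col7a1 (0.991, 20.9 CPM in TPS and 4.70 CPM in EPS), a collagen gene. For Erbb3 they were Mylip (0.985), Btg1 (0.972) and Cdh1 (0.956), the E-cadherin gene, which had means of 442 CPM in TPS and 672 CPM in EPS lines. For Erbb2 they were Armcx2 (0.958), Nrxn2 (0.954) and Dll3 (0.940).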

How the data were processed

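Oligo(dT)-selected RNA was read from both ends. Per the labels and the study's methods, the authors aligned reads to GRCm38.p6 (mm10) with STAR 2.7.3a (fastp 0.19.7 is also named in the submitters' notes, without its role), counted reads per gene and deposited raw counts without normalization. The counting tool, annotation release and use of strand are not given in the sources used here.

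The labels gave each library's cell type, line and technical replicate, and the 2 libraries of a line were added up. Of 55401 identifiers, 55141 matched GENCODE M21. The 6 lines (29877215 to 38466294 counts each) were compared in edgeR 4.0.16 (R 4.3.3) with TMM, filterByExpr (minimum count 10, minimum total 15), the quasi-likelihood test and Benjamini-Hochberg adjustment at 0.05. An SE is the log2 fold change divided by the square root of F. The procedure was tested on simulated data. Floors cover counting error only, since these reads carry no molecular identifiers.

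Shares of receptors were compared by a two-sided exact permutation test over lines. Named genes were the members, the 5 other ligands, the called genes of each pathway list (at most 4 in each direction) and the 3 genes most alike to each tested receptor. Members and lists were chosen with earlier results of these data known. Alternatives were DESeq2 1.42.0, other factors and filters, separate libraries or single technical replicates, the line number as a block, the longest transcript as gene length and leaving out each line. EPS line 3 from either library alone was added after seeing the data.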

Additional observations from a re-analysis of the deposited data

How the results depend on the processing

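Egfr and Nrg2 were called higher in TPS lines in all 18 alternative fits, and Erbb2, Ereg, Btc and Tgfa in none of those that could be fitted. Nrg1 was lost with no filter on low counts (adjusted p = 0.0705) and with technical replicate 2 alone (0.0729), and over its alternatives the adjusted p ran from 0.000431 to 0.144. The lowest of these came from the 12 separate libraries, a fit that counts technical replicates as independent and so gives p-values that are too small. Areg and Btc did not pass the filter in 4 of the 18. The number of members called was 3, and it was 4 with DESeq2, with upper quartile factors, with library size alone and with 12 separate libraries, 2 with no filter on low counts, with a minimum of 1 CPM in 3 lines and with technical replicate 1 alone, 1 with technical replicate 2 alone, and between 1 and 3 when a line was left out. The log2 fold change of Tgfa ranged from -0.12 to 0.37 when a line was left out, and reversed only without TPS line 2 (adjusted p = 0.849). Over all genes, 2509 were called higher and 1282 lower. This became 4067 and 3610 with 12 separate libraries, and 2987 and 745 with library size alone, where 80.0% of calls were higher against 66.2% and the median of all genes was 0.14 against -0.0038. Leaving out a line gave 1617 to 2234 higher and 493 to 1047 lower. The 12 pathway genes called higher became 21 with 12 separate libraries and 7 to 11 without a line. The 2 called lower became 7 with DESeq2 and with no filter, 1 with upper quartile factors, library size alone or technical replicate 1, 5 with technical replicate 2, 11 with 12 separate libraries, 4 with EPS line 3 from library 2 alone, and 1 to 4 without a line. The difference in each receptor share moved by less than 1 SD between lines under each alternative tried for it. Areg and Btc had 40 counts or fewer in each line, which limits their precision. The cause of these changes was not tested.

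Line numbers are shared by both groups in the labels, but nothing says that they pair lines, and deviations from the group means correlated at 0.0264, -0.142 and 0.0109 for lines 1, 2 and 3. No TPS line correlated best with the EPS line of its own number. With the line number as a replicate block, 1714 genes were called higher and 721 lower, Egfr and Areg were the 2 members called, and 7 pathway genes were called higher. None of the 4 shedding genes passed under the block (adjusted p from 0.0548 for Adam10 to 0.0787 for Adam17), Rhbdf1 was called lower (0.0481 against 0.0824 without it), and neither did Nrg1 (0.0920), Sos2 (0.0631) or Nras (0.0880).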
